A study of Mus musculus with 8 samples.

Results

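Rnase4, the angiogenin gene and Rnh1, which encode a pair of secreted ribonucleases and the cell's own inhibitor of them, were followed in mouse embryonic fibroblasts (MEFs) that lack or carry Lats2. Probes were taken by gene name, as every non-control probe named Rnase4, Ang1, Ang or Rnh1. The genes were chosen by earlier values of the same contrast, in which Rnase4 was higher in Lats2-/- cells, so their Lats2-/- over Lats2+/+ ratios are given as a description and without a test. The names found 4 of the 41174 gene probes on the array. There were 2 for Rnase4, 1 for Ang1 and 1 for Rnh1. No probe carried the name Ang, because RefSeq now gives the symbol Ang to the gene that the array calls Ang1, so the 4 names stand for 3 genes. All 4 probes passed the filter on dim signals, and each was well above background on 8 of 8 arrays in both genotypes.

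Rnase4 (ribonuclease 4) and angiogenin (ribonuclease 5) belong to the vertebrate ribonuclease A superfamily, small secreted enzymes that cut RNA. Angiogenin is known for promoting blood vessel growth, for entering nucleoli, where it favours transcription of ribosomal RNA, and for cleaving tRNA in stressed cells. The 2 genes lie next to each other in the same orientation, share promoters and noncoding leading exons, and each keep its coding sequence in an exon of its own. Rnh1, the ribonuclease/angiogenin inhibitor, is a cytosolic leucine-rich repeat protein that binds ribonucleases of this superfamily very tightly. Lats2 is a kinase of the Hippo pathway, which restrains the coactivators YAP and TAZ and so the genes they reach through TEAD factors.

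The arrays compared 3 Lats2-/- RNA extracts with 3 Lats2+/+ extracts, 1 of each from litters 112, 116 and 121. The labels give C57BL/6J as the strain of both genotypes; both were grown in DMEM with fetal bovine serum, and neither was treated. Each extract came from 1 named clone, so every genotype is represented by 1 line of cells per litter, and embryonic age is not given in the sources used here. Each 2-colour array held both extracts of a litter, with 2 arrays for litters 112 and 116 and 4 for litter 121, the dyes being swapped within each litter. Ratios are log2 of Lats2-/- over Lats2+/+, averaged over the arrays of a litter, so that n is 3 litters. A level is the normalized log2 signal of a probe in an extract, which is not set against that of another probe.

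The promoter windows show how closely the 2 ribonuclease genes are joined. RefSeq's promoter table for GRCm38.p6, a later build than that of the probe positions, gives 250 bases before a transcription start and 50 after it. It has 2 windows for Rnase4 and 1 for Ang, and the Ang window is the same sequence as the first Rnase4 window. Each is printed from 5′ to 3′ on the plus strand with the transcribed bases in capitals. The first lies at chr14:51090827-51091126 and the second, which the table assigns to Rnase4, at chr14:51095750-51096049.

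Rnase4 and Ang, shared window: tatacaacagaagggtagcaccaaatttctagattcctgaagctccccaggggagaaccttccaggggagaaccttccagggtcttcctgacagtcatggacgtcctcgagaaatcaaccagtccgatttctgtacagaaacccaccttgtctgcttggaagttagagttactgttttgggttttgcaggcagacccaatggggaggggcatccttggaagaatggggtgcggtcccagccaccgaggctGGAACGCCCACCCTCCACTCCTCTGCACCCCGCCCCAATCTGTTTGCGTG

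Rnase4, second window: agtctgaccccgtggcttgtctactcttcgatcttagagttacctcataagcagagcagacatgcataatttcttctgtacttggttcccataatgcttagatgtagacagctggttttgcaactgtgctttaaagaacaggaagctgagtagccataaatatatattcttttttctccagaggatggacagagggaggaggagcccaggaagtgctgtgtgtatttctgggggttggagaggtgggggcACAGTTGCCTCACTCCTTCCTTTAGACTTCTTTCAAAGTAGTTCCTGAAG

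The shared window holds 54.7% G and C with 8 CG dinucleotides, and the second holds 45.3% with 2, beside medians of 52.7% and 7 over all 32851 promoters in the table. Searches on both strands for GGAATG, the core letters bound by TEAD factors, for TGANTCA, the AP-1 letters, and for TATAAA found no match in either window. These letters occurred in 14.7%, 7.81% and 13.6% of all promoters of this length, respectively. Of the 3 windows listed for Rnh1, which are not shown because its ratio was small, 1 held TGANTCA and another held TATAAA.

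The 4 Lats2 probes were examined first as a check of the labels. The probe at chr14:56676512-56676571 (mm8, the build of the files) gave ratios of -1.33, -1.05 and -0.56 in litters 112, 116 and 121, a mean of -0.98 ± 0.39 (SD, n = 3). The other 3 probes, at lower coordinates, were lower in the Lats2-/- extract in litters 112 and 116 but higher in the extract labelled Lats2-/- of litter 121, by 0.80 to 1.17. Where the allele is disrupted relative to these probes is not given in the sources used here, so directions in litter 121 rest on its labels, and means, ranks and list counts are also given without that litter. Litter 121 was alone on slide 2, so that litter and slide cannot be told apart. Of the fibroblast markers 10 of 10 genes were kept and 8 were above background in all extracts, while of the other lists 3 of 8 macrophage and other blood markers (Ptprc, Adgre1 and Itgam), 3 of 5 endothelial (Pecam1, Cdh5 and Tie1), 1 of 6 epithelial (Epcam), 3 of 4 hepatocyte (Alb, Apoa1 and Ttr) and 1 of 4 neural markers (Sox2) were above background in no extract. The endothelial marker Tek and the keratins Krt5 and Krt14 were kept, with mean ratios of 0.06, 0.04 and -0.06. Kdr, Cdh1 and Afp were above background in 1 extract each, the Lats2-/- extract of litter 121, where their ratios were 0.50, 1.09 and 0.30. Krt8 and Krt18 were above background in 1 extract each, the Lats2+/+ extract of litter 116, where their ratios were -0.30 and -0.40. The summed signal of the fibroblast markers differed between genotypes by 0.02, 0.45 and -1.31 (log2) in litters 112, 116 and 121, and single markers by far more in the last 2. In litter 116 the ratios of the 10 genes ran from -1.19 (Vim) to 5.48 (Lum), with Col3a1 at 3.70, and in litter 121 from -4.96 (Pdgfra) to 0.07 (Fn1), with Thy1, S100a4 and Col3a1 between -3.66 and -3.42. For the blood markers, of which 5 were kept, these differences were -0.16, -0.84 and 2.17, their summed linear signal ranging from 914 to 4520 in Lats2-/- and from 1010 to 2400 in Lats2+/+ extracts. In litter 121 the lysozyme genes Lyz1 and Lyz2 had ratios of 2.70 and 3.40, while the remaining blood markers ran from -0.74 (Cd14) to 0.08 (Itgam). Cd14 was lower in the Lats2-/- extract in every litter, at -0.60, -1.64 and -0.74. For the neural markers, of which 3 were kept, the differences in summed signal were -0.91, 0.55 and 1.96. Their summed signals were 882 to 7660 in Lats2-/- and 797 to 1970 in Lats2+/+ extracts. In litter 121 Nes, which encodes the intermediate filament nestin, had a ratio of 4.10, Tubb3 0.40 and Map2 -0.09. The part of these shifts in the results below was not tested. In such bulk RNA, more cells of a kind and more transcript per cell cannot be told apart.

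Rnase4 was higher in Lats2-/- MEFs in every litter, by 3.84-fold to 5.17-fold with 1 probe and by 3.39-fold to 4.89-fold with the other. Its brighter probe, at chr14:50027312-50027371, had Lats2-/- levels of 11.73, 11.04 and 11.91 in litters 112, 116 and 121, and Lats2+/+ levels of 9.36, 8.86 and 9.97 in their littermates. The lowest Lats2-/- extract thus stood 1.07 above the highest Lats2+/+ extract, a gap close to the 1.11 by which the Lats2+/+ extracts differed among themselves. Litter 116 was the lowest and litter 121 the highest in both genotypes. The litter ratios were 2.37, 2.18 and 1.94, with a mean of 2.16 ± 0.22 (SD, n = 3), a 4.48-fold difference. Without litter 121 the mean was 2.28.

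The second Rnase4 probe, at chr14:50026958-50027017 and 354 bases from the first, had levels of 11.46, 10.74 and 11.45 in Lats2-/- and of 9.18, 8.67 and 9.69 in Lats2+/+ extracts. Again the genotypes did not overlap, with a gap of 1.05. Its ratios of 2.29, 2.06 and 1.76 averaged 2.04 ± 0.26 (SD, n = 3), or 4.11-fold, and 2.18 without litter 121. The 2 probes differed by 0.13 ± 0.05 (SD, n = 3) on the log2 ratio scale, less than the spread of either over the litters, and both put the litters in the order 112, 116, 121.

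**Figure D1:**
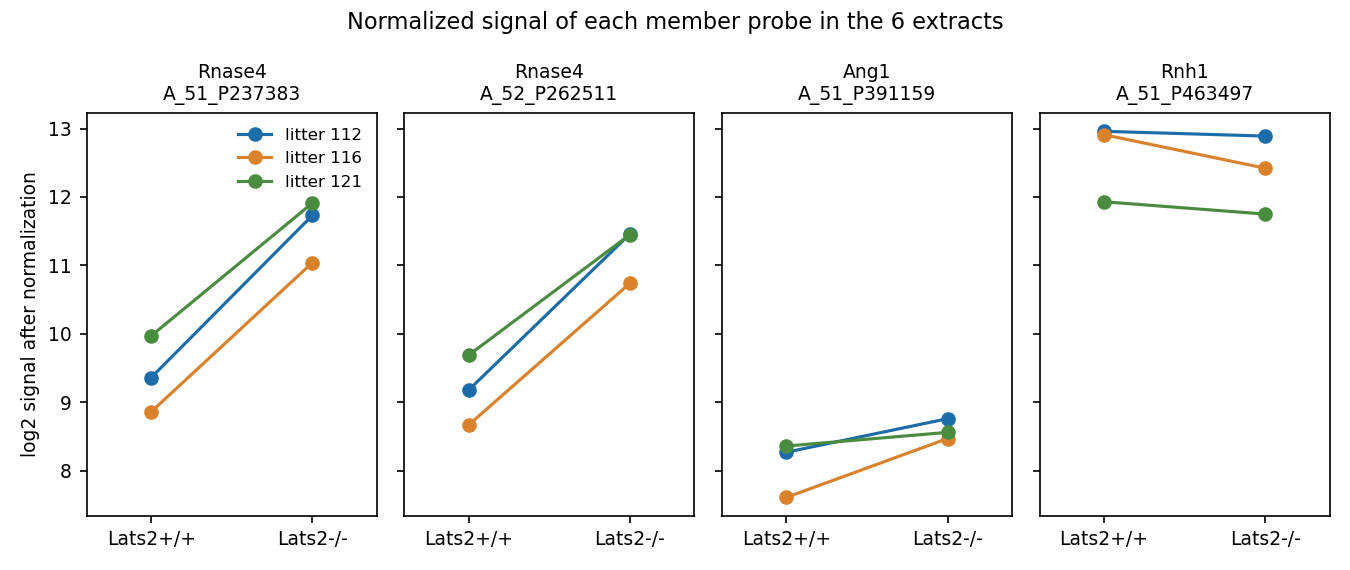
Normalized log2 signal (vertical axis) of the 4 probes in the Lats2+/+ and Lats2-/- extract of each litter, 1 panel per probe, with a line joining the littermates. The Rnase4 lines climb steeply and in parallel, from 8.86 to 9.97 up to 11.04 to 11.91 for the brighter probe, the Ang1 lines climb little, and the Rnh1 lines run nearly flat.

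Ang1, whose probe at chr14:50023614-50023673 ends 3285 bases before the nearest Rnase4 probe, was higher in Lats2-/- cells as well, but by a much smaller amount that varied among litters. In litters 112, 116 and 121 its level was 8.76, 8.47 and 8.56 with Lats2-/- and 8.27, 7.61 and 8.36 with Lats2+/+. The genotypes were separated by only 0.11, and the Lats2-/- extracts lay closer together (range 0.28) than the Lats2+/+ extracts (0.75). The ratios of 0.48, 0.86 and 0.20 averaged 0.52 ± 0.33 (SD, n = 3), or 1.43-fold, and 0.67 without litter 121. Litter 116, with the lowest Lats2+/+ level, had the largest Ang1 ratio, whereas the largest Rnase4 ratio was in litter 112.

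The ratio of the brighter Rnase4 probe exceeded that of Ang1 by 1.89, 1.32 and 1.74 in the 3 litters, on average by 1.65 ± 0.29 (SD, n = 3). Measured with the other Rnase4 probe, the differences were 1.80, 1.20 and 1.56. The 2 genes, which share a promoter window, were closest in litter 116. Since Rnase4 was chosen by its ratio, this gap is a description and carries no test.

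Rnh1, measured at chr7:141014519-141014578 on the minus strand, was slightly lower in the Lats2-/- extract in all 3 litters. Its levels were 12.89, 12.42 and 11.75 in Lats2-/- and 12.96, 12.91 and 11.93 in Lats2+/+ extracts, so the genotypes overlapped almost fully and litter 121 was lowest in both. The ratios were -0.07, -0.49 and -0.18, a mean of -0.25 ± 0.22 (SD, n = 3), and -0.28 without litter 121. They were below 0 on 8 of 8 arrays, which are repeats of the same 3 pairs of extracts.

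Both dye orientations gave the same direction for each probe, but the small Rnh1 and Ang1 ratios varied with the dye in litter 121. There Rnh1 read -0.29 and -0.30 with Lats2-/- in Cy5 but -0.07 and -0.05 in Cy3. Ang1 read 0.27 on both arrays with Lats2-/- in Cy5 but 0.11 and 0.16 in Cy3. The Rnase4 ratios lay between 1.92 and 2.42 over the 8 arrays for the brighter probe and between 1.72 and 2.36 for the other, those of Ang1 between 0.11 and 0.89, and those of Rnh1 between -0.57 and -0.03. With Lats2-/- in Cy5 the means over litters were 2.20, 2.05, 0.53 and -0.32 for these probes in the same order, and with Lats2-/- in Cy3 they were 2.13, 2.02, 0.50 and -0.17. Before background correction the spots of the brighter Rnase4 probe measured 316 to 5890 intensity units and those of Ang1 135 to 632, against a local background of at most 45.0 and 40.5.

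**Figure D2:**
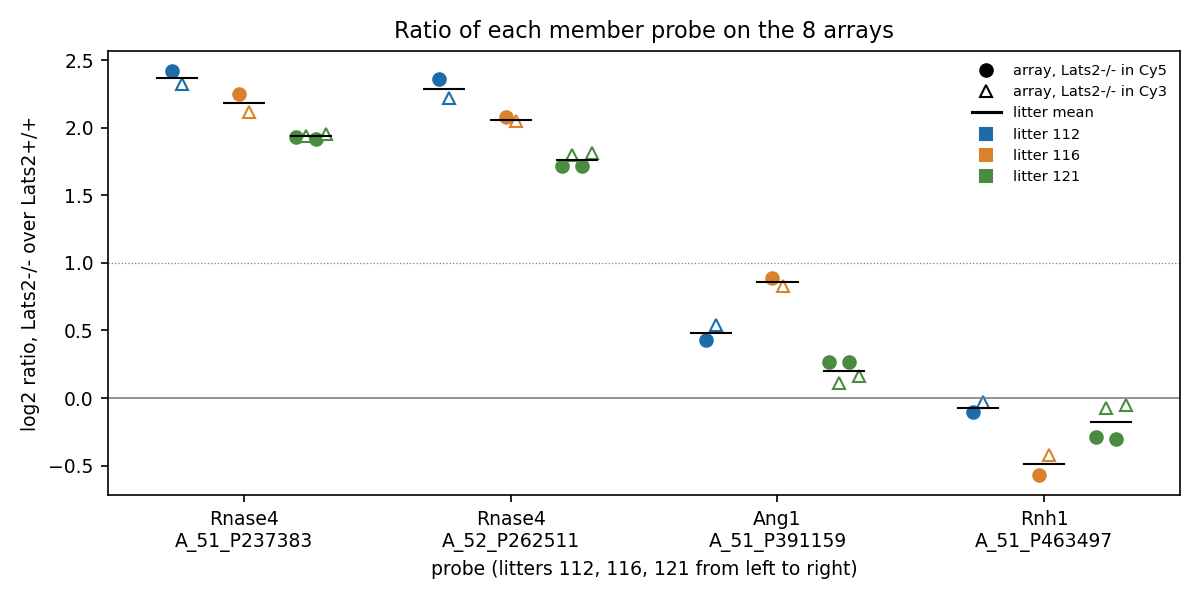
Log2 ratio of Lats2-/- over Lats2+/+ (vertical axis) of the 4 probes on each of the 8 arrays, grouped by litter, with circles for arrays that have Lats2-/- in Cy5, triangles for Cy3, black bars for litter means and a dotted line at 2-fold. All Rnase4 points lie above 1.7, all Ang1 points between 0.11 and 0.89, and all Rnh1 points below 0.

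Over the whole array, limma's moderated test of the litter ratios called 0 of 22642 kept probes at an adjusted p under 0.05 (0.0%), with a smallest adjusted p of 0.634, while 1549 had an unadjusted p under 0.05 (6.84%). Both Rnase4 probes were at least 2-fold higher in each litter, a size that 48 kept probes reached (0.212%) and that 7 reached in the other direction (0.0309%). All 3 Lats2-/- extracts lay above all 3 Lats2+/+ extracts for 3 of the 4 member probes and for 700 kept probes (3.09%). Since the genes were chosen with this contrast known, nothing is read from these counts. By mean ratio the Rnase4 probes ranked 28th and 39th from the top, Ang1 1182nd, and Rnh1 3024th from the bottom; without litter 121 these ranks were 45, 53, 1061 and 3319.

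The other angiogenins, further copies of the gene that arose in mice, gave ratios nearer to that of Ang1 than to those of Rnase4. They were dim, with Lats2+/+ levels of 6.37 to 7.2, while Ptprc, above background in no extract, read 6.01 to 6.11 there. The median of the kept ribonuclease A genes outside the members was 0.39. It was 0.54 with a background-correction offset of 16 and 0.75 with the processed signals. The brighter Rnase4 probe gave 2.16, 2.23 and 2.25 at these settings. The size of the angiogenin ratios thus depends on the processing, though the family median stayed below Rnase4. Ang2, at chr14:50117591-50117650, had levels of 7.11, 6.75 and 7.17 in Lats2-/- and of 6.61, 6.37 and 6.82 in Lats2+/+ extracts, which overlapped. Its ratios were 0.50, 0.39 and 0.36 (mean 0.41 ± 0.08, SD, n = 3; limma adjusted p = 0.711; 0.44 without litter 121). Ang6, at chr14:42882009-42882050 and named EG630952 on the array, had ratios of 0.45, 0.55 and 0.33 (mean 0.44 ± 0.11, SD, n = 3; limma adjusted p = 0.711), and a mean of 0.50 without litter 121. The brighter of 2 Ang4 probes, at chr14:50686342-50686401, gave 0.35, 0.59 and 0.15, and the other gave 0.44, 0.61 and 0.19, with means of 0.47 and 0.53 without litter 121. Angiogenin paralogs are alike in sequence, and probe letters were not used here, so how far each of these probes reports its own gene is uncertain. A probe for the transcript AI385586, which RefSeq lists as a synonym of Ang, lies at chr14:50023501-50023560 on the opposite strand to the Ang1 probe, was well above background on 3 of 8 arrays in either genotype and did not pass the filter.

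Within the remaining ribonuclease A family, 14 genes with 17 probes were on the array, leaving aside the members and the AI385586 probe, and 4 genes passed the filter (Ang2, Ang4, Ang6 and Rnase10). None passed the adjusted threshold, and 2 of the 4, Ang2 and Ang6, were higher at an unadjusted p under 0.05, as were 4.15% of all genes. Without litter 121, 1 of the 4 was, beside 3.99% of all genes. The median ratio of the 4 was 0.39, beside 0.01 over all genes, but 0.75 with the processed signals. With no filter on dim probes, which also lets in the dim genes of the family, the median was 0.03. Ang2, Ang4 and Ang6 passed through both genotypes, whereas Rnase10 passed through Lats2-/- extracts alone. The other 10 genes, among them Rnase1, Rnase6 and Rnase9 and the eosinophil-associated genes on the array, did not pass the filter on dim signals. Rnase10, a ribonuclease relative known from the epididymis, was above background in 3 Lats2-/- but 1 Lats2+/+ extract, with ratios of 0.23, 0.19 and 0.03 (mean 0.21 without litter 121).

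Around Rnase4, the 500 kb on either side held 41 probes other than the members, of which 18 passed the filter, representing 13 genes. None was 2-fold different in every litter or past the adjusted threshold (smallest limma adjusted p 0.711), and their median ratio was 0.02, or 0.28 for the 2 genes within 100 kb. At an unadjusted p under 0.05, 2 genes were higher and 0 lower, or 15.4% of the 13, beside 7.60% of all genes. These were Ang2, 90.6 kb after Rnase4 and the nearest kept gene on that side, and Ttc5, a cofactor of p300 and regulator of tubulin mRNA, 339 kb before it. Ttc5 had levels of 8.72, 8.54 and 8.94 in Lats2-/- and of 8.18, 8.36 and 8.52 in Lats2+/+ extracts, ratios of 0.54, 0.19 and 0.42, and a limma adjusted p of 0.711, while its other probe averaged 0.03. Without litter 121 it averaged 0.36, and 0 of the 13 genes had an unadjusted p under 0.05. The nearest kept gene on the other side of Rnase4, members aside, was Rnase10, at 94.9 kb. Lats2 is on the same chromosome, 6.62 Mb from Rnase4, and what that distance means for these ratios was not tested.

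**Figure D3:**
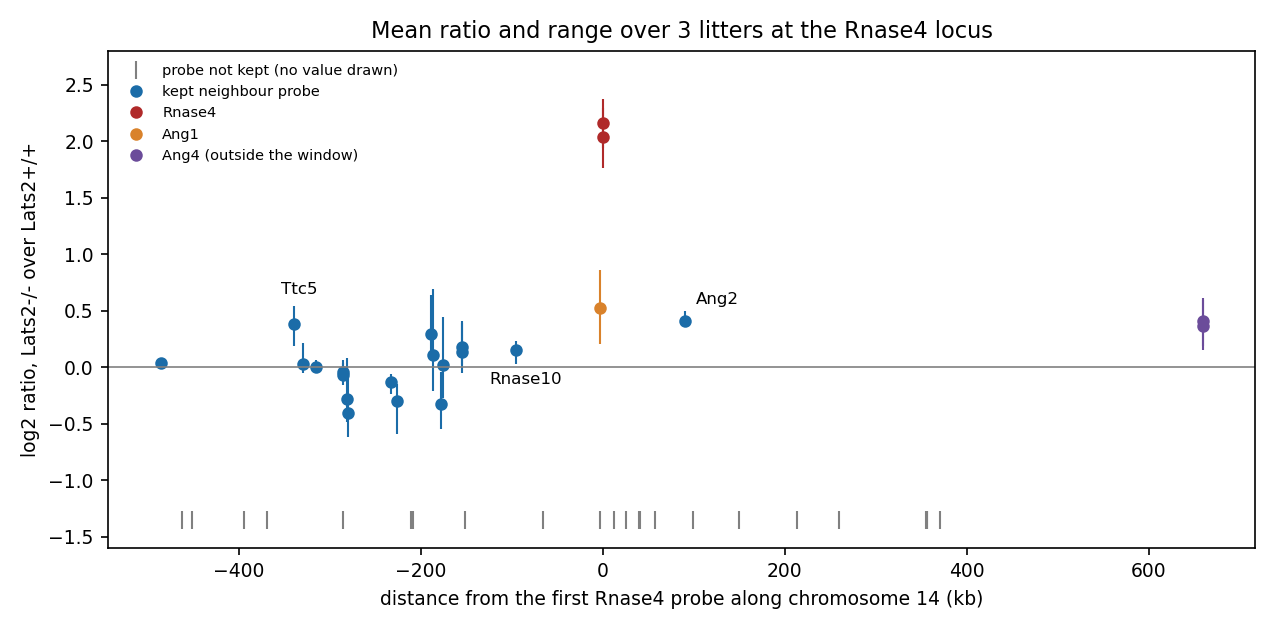
Mean log2 ratio of Lats2-/- over Lats2+/+ (points) with the range over 3 litters (lines) against distance from the first Rnase4 probe in kb, for probes that passed the filter within 500 kb and for Ang4 further along; grey ticks mark probes that did not pass. Rnase4 stands at 2.04 and 2.16, Ang1 and Ang2 at 0.52 and 0.41, the 2 Ang4 probes at 0.36 and 0.41, and the remaining neighbours between -0.41 and 0.38.

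The 2 genes for proteins described as angiogenin receptors had smaller mean ratios than Rnase4, and their litters disagreed in sign. Plxnb2, the plexin through which angiogenin is taken up, had ratios of 0.21, -0.07 and 0.60 (mean 0.25 ± 0.34, SD, n = 3, limma adjusted p = 0.780). Its mean fell to 0.07 without litter 121, and its other kept probe averaged 0.05. Egfr, the epidermal growth factor receptor, which has been reported to bind human angiogenin, gave -0.72, 2.75 and 0.97 with its brightest probe, a spread of 1.73 (SD, n = 3) that exceeded its mean, and the sign of all 5 kept Egfr probes was negative in litter 112 and positive in the other 2. The mean of the brightest was 1.01 without litter 121, but the size rests largely on litter 116. The median ratio of the 2 receptor genes was 0.62, and it was 0.26 without litter 116 and 1.06 without litter 112. Neither receptor gene passed an unadjusted p of 0.05.

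Among other secreted or lysosomal nucleases, 6 of 10 genes on the array were kept, 1 was higher at an unadjusted p under 0.05 (16.7%, beside 4.15% of all genes) and 0 were lower. The median ratio was 0.11, from 0.02 to 0.20 over the alternatives. The one was Pld3, a lysosomal exonuclease. Its levels were 10.81, 10.99 and 11.78 in Lats2-/- and 9.91, 10.15 and 10.90 in Lats2+/+ extracts, so that the genotypes overlapped while each Lats2-/- extract exceeded its littermate. The ratios of 0.90, 0.85 and 0.88 were the most even among the genes of this list (mean 0.88 ± 0.03, SD, n = 3; limma adjusted p = 0.634), and averaged 0.87 without litter 121, when 1 of the 6 genes again had an unadjusted p under 0.05. Rnaset2b, an acidic ribonuclease of lysosomes, gave -0.34, 1.03 and 0.30 (mean 0.33, limma adjusted p = 0.832), or 0.35 without litter 121. Its litters disagreed in sign and its mean rests largely on litter 116, while its other kept probe averaged 0.11.

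Of the genes for tRNA methylation and stress granules, which stand on either side of angiogenin's cleavage of tRNA, all 12 were kept, 0 were higher and 2 lower at an unadjusted p under 0.05 (16.7%, beside 3.45% of all genes). The median ratio was -0.08, from -0.14 to -0.01 over the alternatives. G3bp1, a core protein of stress granules that the array lists as RP23-336J1.4, had ratios of -0.46, -0.58 and -0.65 (mean -0.56 ± 0.10, SD, n = 3; limma adjusted p = 0.711), and its second probe averaged -0.47; without litter 121 they averaged -0.52 and -0.53. Nsun2, a tRNA cytosine methyltransferase, averaged -0.67 with its brighter probe but -0.08 with the other, so the 2 probes disagreed, as they did without litter 121 (-0.55 and 0.01). Without that litter 1 of the 12 genes was lower at an unadjusted p under 0.05.

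For RNA polymerase I and nucleolar genes, through which ribosomal RNA is made, all 14 genes were kept and the median ratio was -0.30. At an unadjusted p under 0.05, 0 were higher and 6 lower (42.9% lower, beside 3.45% of all genes), and 9 of 14 were lower in all 3 litters (64.3%, beside 14.1% of all genes). None passed the adjusted threshold. Without litter 121, 1 of 14 was lower at an unadjusted p under 0.05 (7.14%, beside 3.54% of all genes), 10 were lower in both remaining litters (71.4%, beside 25.7%), and the median was -0.24. Polr1b, the second largest subunit of RNA polymerase I, had levels of 8.85, 8.77 and 8.28 in Lats2-/- and of 9.29, 9.41 and 8.97 in Lats2+/+ extracts, which did not overlap, with ratios of -0.44, -0.64 and -0.69 (mean -0.59 ± 0.13, SD, n = 3; limma adjusted p = 0.711), and a mean of -0.54 without litter 121. Npm1, the abundant nucleolar phosphoprotein nucleophosmin, gave -0.40, -0.29 and -0.90 (mean -0.53 ± 0.33, SD, n = 3; limma adjusted p = 0.711), or -0.35 without litter 121.

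**Figure D4:**
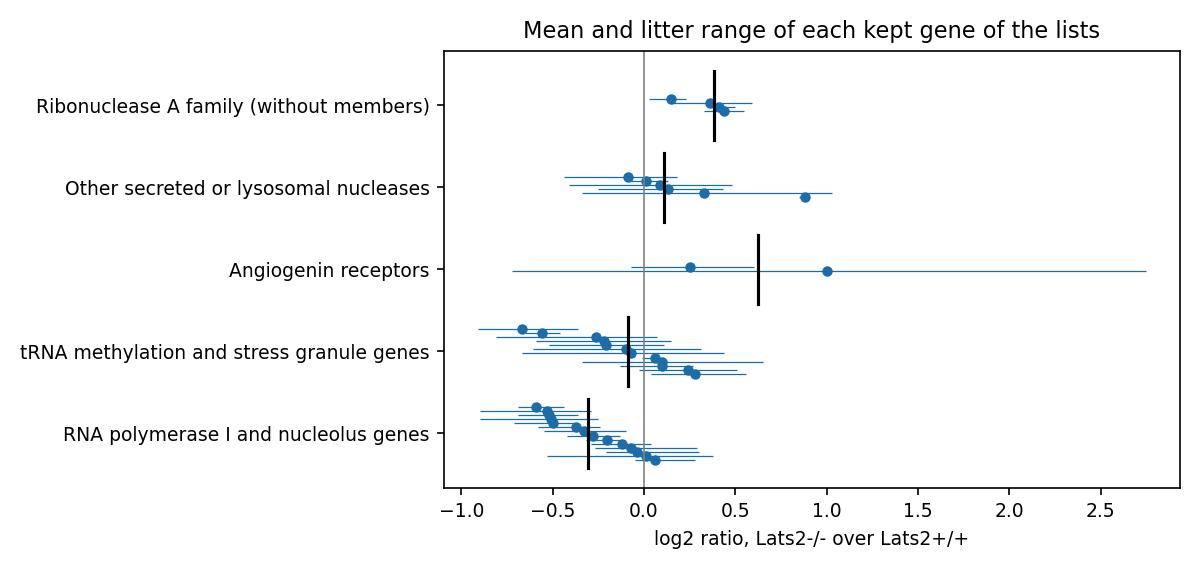
Mean log2 ratio of Lats2-/- over Lats2+/+ (points, horizontal axis) with the range over 3 litters (lines) for each kept gene of 5 gene lists, 1 probe per gene, with the list median as a black bar. The ribonuclease A family without the members has a median of 0.39 and the RNA polymerase I and nucleolus genes one of -0.30, while Egfr spans -0.72 to 2.75.

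The genes whose centred levels over the 6 extracts lay closest to those of the brighter Rnase4 probe were, in order, Junb, Skap2, Sema3e, Cxcl12 and Lyn. The likeness is the root mean square difference in log2 signal from Rnase4, which was 0.17 for Junb, 0.41 for Skap2, 0.47 for Sema3e, 0.48 for Cxcl12 and 0.50 for Lyn, with Pearson's r over 6 extracts of 0.989, 0.948, 0.916, 0.914 and 0.917. The 6 points share 3 litters and 2 slides, and the likeness was not computed without litter 121. These genes were picked by that closeness, to a probe itself chosen for its difference between genotypes. High r and a shared litter order follow in part from that choice, and nothing is read from them. By likeness over the 3 litter ratios, only Junb was again among the closest genes. Junb, an AP-1 transcription factor, had litter ratios of 2.48, 2.17 and 1.57, in the same litter order as Rnase4. The chemokine gene Cxcl12 and the semaphorin gene Sema3e were less even, at 2.75, 0.93 and 1.20 and at 2.64, 0.95 and 1.14. Skap2, an adaptor of Src family kinases, and the Src family kinase gene Lyn had their smallest ratio in litter 112, at 1.05 and 0.96. Sema3e and Lyn were above background in 1 of 3 Lats2+/+ extracts, so their levels there are near the floor. Both passed the filter, and so entered this ranking, through Lats2-/- extracts alone.

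Closest to Ang1 were Arpc1a, a subunit of the actin-nucleating Arp2/3 complex, Ang4, and Rnf181, an E3 ubiquitin ligase gene named 2500002L14Rik on the array, with root mean square differences of 0.07, 0.08 and 0.09 and Pearson's r of 0.979, 0.993 and 0.969 over the 6 extracts. These 3 genes were picked by that closeness, and by likeness over the 3 litter ratios 0 of them were again among the first 3. Between the Ang1 and Rnase4 probes r was 0.863, and their litter ratios differed by a root mean square of 1.67, against 0.14 between Ang1 and the dimmer Ang4 probe.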

How the data were processed

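RNA of 6 mouse embryonic fibroblast extracts was hybridised by the authors in pairs to 8 Agilent 2-colour arrays. Each deposited scanner file holds spot mean and local background intensity on a linear scale, unnormalized, extracted with Feature Extraction 10.7.3.1 per the file headers (10.5.1.1 per the labels), with positions in mm8. The deposited log10 ratios, in those files and in the series' value table, were dye normalized by the authors, as were the processed intensities; they served as alternatives.

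Here, intensities were background corrected (normexp, offset 50), 860 outlier spots left out, arrays loess normalized and repeat spots averaged in limma 3.58.1 (R 4.3.3). Levels followed Aquantile between arrays. A probe was kept if well above background in at least 2 of 3 extracts of either genotype, an extract needing most of its arrays. Arrays of a litter share 2 extracts and were averaged, since they are 1 replicate; pairing within litters comes from the clone names. Litter ratios were tested against 0 with lmFit and eBayes, two-sided, and Benjamini-Hochberg adjustment over 22642 probes at 0.05. The fit was also run on simulated litter ratios for all 22642 probes, drawn with the observed litter SDs. That was a check of the computation, and nothing is read from it here. The p-values measure the spread between 3 litters. The number of litters limits the precision.

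The members and lists were chosen with earlier results of these data known. Named genes were the members, Lats2, the nearest kept genes around Rnase4, the 5 genes most like Rnase4 and 3 most like Ang1, and in each list those past a threshold or with the 2 largest mean ratios, from the brightest kept probe per gene. Current symbols came from RefSeq (GRCm38.p6): 24375 probes matched by accession, 6301 by symbol and 2426 by synonym, and 8072 kept the name in the files. Alternatives covered background correction, the deposited ratios, centring, filters, blocks, the methods' t-test, locus windows, likeness and leaving out each litter.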

Additional observations from a re-analysis of the deposited data

How the results depend on the processing

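Rnase4, Ang1 and Rnh1 kept their direction under all 9 alternatives that give litter ratios, over ranges of 2.06 to 2.28 and 1.91 to 2.18 for the 2 Rnase4 probes, 0.34 to 0.67 for Ang1 and -0.34 to -0.12 for Rnh1. Without 1 litter the means were 2.06 to 2.28, 1.91 to 2.18, 0.34 to 0.67 and -0.34 to -0.12. Probes at least 2-fold in each litter numbered 55 (48 higher, 7 lower), 184 (143 higher, 41 lower) with the processed signals or the deposited value table, and 168 to 231 with 1 litter left out, where fewer litters are asked for: 148 higher and 83 lower without litter 112, 133 and 35 without litter 116, and 145 and 57 without litter 121. No probe passed the adjusted threshold in the main fit or in the other alternatives, except that entering the 8 arrays singly, as if each were a sample, gave 717 calls when slide was the random block and 341 when litter was. With slide these include 2 probes of the ribonuclease A family (Ang2 and Ang6), 1 other nuclease (Pld3), 2 tRNA and stress granule probes (G3bp1 and Nsun2), 6 RNA polymerase I and nucleolus probes and 1 locus neighbour (Ang2). With litter they include 1 other nuclease (Pld3), the same 2 tRNA and stress granule genes and 2 nucleolus probes (Taf1d and Ncl). The fit with no replicate block called 0 probes, as the paired fit did. By likeness over the 3 litter ratios, 1 of the 5 genes closest to Rnase4 was shared (Junb) and 0 of the 3 closest to Ang1. Windows of 100 and 2000 kb left 0 locus neighbours past the threshold, with median ratios of 0.28 (2 genes) and 0.03 (35 genes) beside 0.02 at 500 kb and 0.06 without litter 116. The median of the other ribonuclease A genes, 0.39, was 0.54 with normexp offset 16 and 0.75 with the processed signals or deposited values. It was 0.03 with no filter, which also lets in the dim genes of the family. That of the tRNA and stress granule genes, -0.08, was -0.14 with processed signals or deposited values and -0.01 without litter 112 or 121. The number of litters, 3, limits the precision of every ratio.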
